A study of Rattus norvegicus with 6 samples.

Results

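The SOCS (suppressor of cytokine signaling) family was examined in crushed and intact rat sciatic nerves. Its 8 members, Socs1 to Socs7 and Cish, were taken from the deposited expression table by gene symbol, and all 8 had a row among the 30957 Ensembl genes of that table. RNA-seq covered 3 nerves that had been crushed and 3 intact nerves from the contralateral side of Sprague Dawley rats, which the methods describe as adult males. Neither group is labelled with a drug or a genetic change, and the control is the uninjured other side, not a sham operation. By the methods, stumps of 0.5 cm proximal to the crush were taken 4 days after injury. The labels give the strain and whether a nerve was injured or normal, but neither a time, nor an animal, nor pooling, so that p-values measure the spread between these samples, which may be technical.

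SOCS proteins are feedback inhibitors of cytokine signaling. A cytokine binds its receptor, the attached Janus kinases (JAKs) phosphorylate STAT transcription factors, and the STATs switch on target genes, among them several SOCS genes. The proteins made from these genes carry an SH2 domain that binds phosphotyrosine and a SOCS box that recruits elongins and a cullin, so that a bound receptor or kinase is inhibited or marked for degradation. Socs1 and Socs3 also hold a region that blocks JAK activity directly, and Cish and Socs2 are known as inhibitors of the STAT5 signal of growth hormone and related hormones. Socs4 and Socs5 are linked to the EGF receptor, and Socs6 and Socs7 to KIT and insulin signaling. In injured nerve, cytokines of the IL-6 group and their shared receptor gp130 are known to signal through STAT3 in Schwann cells and neurons.

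The counts on genes summed to between 24844371 and 27139360 per nerve, and a floor of 3 counts corresponded to between 0.110 and 0.121 CPM (counts scaled to the normalized library size). Of 9 Schwann cell and myelin markers, 4 (Mbp, Sox10, S100b and Mag, all defining markers of that lineage) had at most 3 counts in every nerve. Of 12 macrophage markers, 4 (Adgre1, Ptprc, Cd163 and C1qa) had 0 counts in all 6 nerves, and the summed level of the list was between 4.43 and 5.85 CPM in intact nerves and between 4.72 and 6.48 CPM in crushed nerves. The 5 proliferation genes summed to between 2820 and 3164 CPM over all 6 nerves, and Mki67 alone averaged 1572 CPM in intact and 1452 CPM in crushed nerves. These marker levels go against the labelled tissue, and the values do not tell which cells the libraries hold. In what follows, an intact or a crushed nerve means a library with that label. In such bulk samples, fewer cells of a type and less RNA per cell cannot be told apart.

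Upstream sequences of the RefSeq annotation of the GRCr8 assembly, each covering 250 bases before and 50 bases after a start, matched 5 of the 8 members. Those of Cish and Socs1 are shown because they lie at the first start of their gene and hold a STAT motif match. STAT binding sites upstream of SOCS genes are the textbook link between the pathway and this family. The STAT motif TTCNNNGAA, the longer form TTCNNNNGAA preferred by STAT6, and the NF-κB consensus were searched on either strand. The Cish sequence (chr8:116850719-116850968 before the start, plus strand) held 4 matches to the STAT motif and the Socs1 sequence (chr10:5389324-5389573 before the start, plus strand) held 1. Of all 33469 sequences with 250 bases before and 50 bases after a start, 8.87% held at least 1 match. None of the 5 members searched matched the longer form, which 7.28% of all sequences held. The Socs3 sequence (chr10:103694719-103695018, minus strand) held 1 match to the NF-κB consensus, found in 4.18% of all sequences, and no STAT motif. However, the start used for Socs3 lies 1207 bases inside the RefSeq gene, so that this window is not the region before the first start of Socs3. The same holds for Socs6, whose start lies 6128 bases inside the gene and whose window held no match. The Socs4 sequence does lie at the first start of its gene, and it held no match to any of these motifs. A match is only a match of letters. The 250 bases before the start are printed on the strand of the gene from 5′ to 3′, with STAT motif matches in capitals.
Cish: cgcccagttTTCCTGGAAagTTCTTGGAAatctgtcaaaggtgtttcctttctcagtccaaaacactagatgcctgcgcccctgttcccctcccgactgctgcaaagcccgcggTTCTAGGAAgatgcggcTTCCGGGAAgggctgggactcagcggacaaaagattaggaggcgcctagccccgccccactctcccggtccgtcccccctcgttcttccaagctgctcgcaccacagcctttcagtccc
Socs1: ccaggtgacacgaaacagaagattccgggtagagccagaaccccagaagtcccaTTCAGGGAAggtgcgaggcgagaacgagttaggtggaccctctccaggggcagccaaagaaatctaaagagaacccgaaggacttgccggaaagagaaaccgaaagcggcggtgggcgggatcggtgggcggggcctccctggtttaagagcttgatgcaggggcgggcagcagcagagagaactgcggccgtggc

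Levels of different members were compared in FPKM, the authors' value scaled by gene model length and by the nerve's total on genes. Socs3 and Socs5 were the most abundant members and Socs2 was the least. Together Socs3 and Socs5 held between 76.5% and 79.6% of the summed FPKM of the family in each nerve. The lowest value over the 6 nerves was 89.8 FPKM for Socs3 and the highest was 120.1 FPKM, whereas Socs5 ranged from 73.2 to 86.5 FPKM. Socs4 ranged from 21.3 to 22.5 FPKM, Socs6 from 13.5 to 16.9 FPKM and Socs7 from 12.2 to 14.9 FPKM. Socs1 and Cish were far lower, from 0.886 to 1.86 FPKM and from 0.659 to 0.927 FPKM, and Socs2 lay between 0.0521 and 0.227 FPKM. In this order the ranges of Socs6 and Socs7 overlapped, and so did those of Socs1 and Cish. All other neighbours in the order had separate ranges over the 6 nerves. The largest step was between Socs7 and Socs1, with a 10.7-fold ratio of the means. Against all genes tested, Socs3 stood above 93.9% and Socs5 above 91.7% by mean FPKM, whereas Socs1 stood above 12.0% and Cish above 8.94%. The FPKM of Socs3 rests on a gene model of 863 bases, the shortest of the family, and that of Socs5 on the longest, with 4233 bases.

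**Figure D1:**
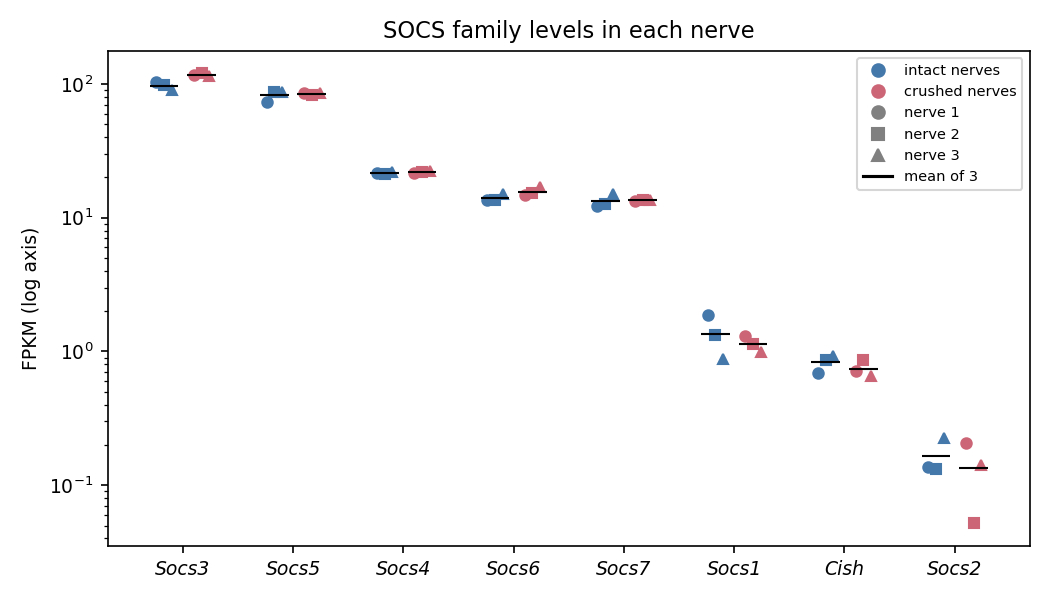
FPKM on a log axis for each SOCS family member in each of the 3 intact (blue) and 3 crushed (red) nerves, with horizontal lines at the mean of 3. Socs3 and Socs5 sit between 73.2 and 120.1 FPKM, Socs4, Socs6 and Socs7 between 12.2 and 22.5 FPKM, and Socs1, Cish and Socs2 below 2 FPKM, in intact and crushed nerves alike in this order.

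To ask which members differed after crush, edgeR's quasi-likelihood test was run on the counts of all genes, and p-values were adjusted by the Benjamini-Hochberg method. No SOCS member met the limits of the methods for a differentially expressed mRNA, an absolute log2 fold change above 1 and an unadjusted p under 0.001, which 0.282% of the 12393 genes tested met. Of the 7 members that passed the expression filter, 1 had an unadjusted p under 0.05, as did 16.2% of all genes tested, and the same 1, Socs3, had an adjusted p under 0.05. DESeq2 also gave 0 members at the limits of the methods. At an adjusted p under 0.05, 1.47% of all genes were higher and 1.65% lower in crushed nerves. The 7 members had a median log2 fold change of 0.01, beside a median of -0.0017 over all genes tested.

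Socs3, an inhibitor that binds gp130 and JAKs, was the member that rose. The gene (ENSRNOG00000002946) lies at chr10:106975178-106976040 in the deposited table, for which the submitters' notes name Rnor_6.0. Intact nerves 1, 2 and 3 had 2265, 2252 and 1926 Socs3 counts, and crushed nerves 1, 2 and 3 had 2749, 2803 and 2469. The normalized level averaged 84.2 ± 5.97 CPM in intact nerves and 100.8 ± 2.35 CPM in crushed nerves (SD, n = 3 each). The groups did not overlap, with the crushed nerves on the higher side. The same was true of 10.8% of all genes tested, and 12.2% had the crushed nerves on the lower side without overlap. The rise was 19.7%, or 0.26 on the log2 scale, with a standard error of 0.0554 and a 95% interval from 0.14 to 0.38 (edgeR, adjusted p = 0.0311). An exact permutation test over the 6 nerves gave p = 0.1 (two-sided), the smallest that 3 against 3 allow. The direction was the same with any nerve left out, with log2 fold changes between 0.21 and 0.31. With 1 nerve left out, however, the adjusted p was under 0.05 only without intact nerve 1 (0.00657). It was 0.0823 without intact nerve 2, 0.0732 without intact nerve 3, and 0.122, 0.140 and 0.0784 without crushed nerve 1, 2 and 3 (edgeR). As a share of the summed FPKM of the family, Socs3 made up 42.1% ± 3.26 in intact and 46.0% ± 0.994 in crushed nerves (SD, n = 3), and these shares overlapped between the groups.

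**Figure D2:**
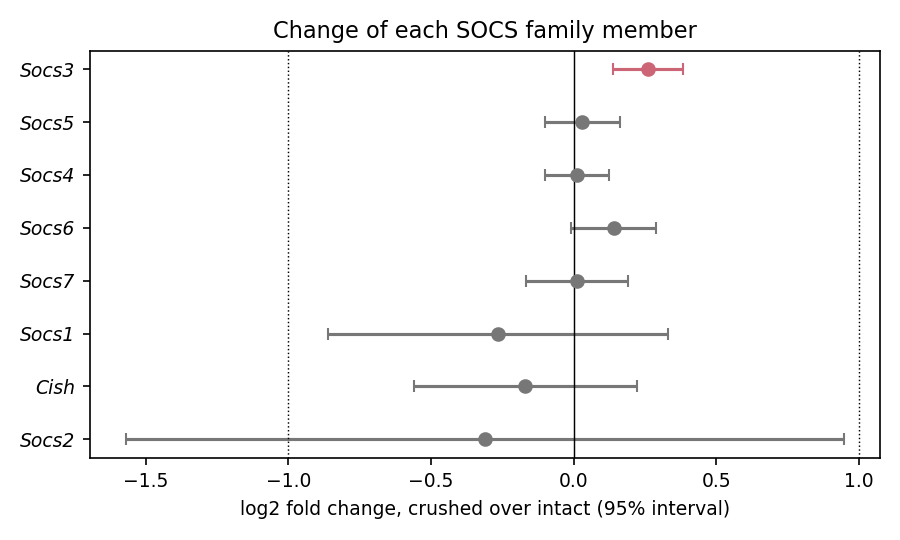
Log2 fold change of crushed over intact nerves (x axis) for each SOCS family member (y axis), with its 95% interval from edgeR's quasi-likelihood test over 3 nerves per group. The interval of Socs3 (red) lies above 0, those of the other members (grey) include 0, and dotted lines mark the limit of 1 in either direction.

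Socs5, Socs4 and Socs7 did not pass the test, and their intervals were narrow. Socs5 (chr6:10674371-10704977), which has been tied to EGF receptor and IL-4 signaling, had 7917, 9710 and 9094 counts in the intact group and 9870, 9456 and 9032 after crush. Intact nerve 1 was the lowest of the 6 and the groups overlapped. The log2 fold change of Socs5 was 0.03, with a 95% interval from -0.10 to 0.16, and its adjusted p was 0.847. Socs4 (chr15:24056383-24070857), the closest relative of Socs5, lay between 43.0 and 44.4 CPM in intact and between 43.1 and 44.8 CPM in crushed nerves, with a 95% interval of the log2 fold change from -0.10 to 0.12. The adjusted p of Socs4 was 0.940. Socs7 (chr10:85301875-85330397), an adaptor of insulin signaling, had 21.3, 22.2 and 26.0 CPM in intact nerves and 23.1, 23.4 and 23.5 CPM after crush. The crushed nerves fell inside the range of the intact nerves, and the interval of the log2 fold change ran from -0.17 to 0.19 (adjusted p = 0.962). The upper ends of the intervals were 1.12-fold for Socs5, 1.09-fold for Socs4 and 1.14-fold for Socs7.

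Socs6 (chr18:85962729-85980833), which is linked to receptor kinases such as KIT, was counted 1016, 1060 and 1097 times in the intact group and 1174, 1219 and 1238 times after crush. In counts the groups were apart, but after normalization intact nerve 3 (44.3 CPM) lay above crushed nerve 1 (43.0 CPM). Its log2 fold change was 0.14 (95% interval -0.01 to 0.29, adjusted p = 0.353), so that the difference did not pass the test, and it was 0.08 without crushed nerve 3.

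Socs1, Cish and Socs2 had few reads, and their intervals were correspondingly wide. Socs1 (chr10:4957326-4958461), the family's inhibitor of interferon signaling, was counted 54, 40 and 25 times in the intact group and 40, 35 and 28 times after crush. The intact nerves spanned the crushed nerves on either side. Its log2 fold change of -0.26 (95% interval -0.86 to 0.33, adjusted p = 0.680) turned to 0.03 without intact nerve 1. Cish (chr8:116054465-116060723), whose upstream sequence held the 4 STAT motifs printed above, had 56, 73 and 73 counts in intact and 61, 74 and 52 counts in crushed nerves 1, 2 and 3. The groups overlapped, and the log2 fold change was -0.17 (95% interval -0.56 to 0.22, adjusted p = 0.689). It was -0.08 without intact nerve 3, -0.09 without crushed nerve 3, -0.28 without intact nerve 1 and -0.29 without crushed nerve 2. Socs2 (chr7:36495480-36499784) was counted 5, 5 and 8 times in the intact group and 8, 2 and 5 times after crush. The study followed Socs2 in macrophages, as mRNA and as protein. It named the gene a potential microRNA target after comparing predicted targets with the mRNAs that differed in crushed nerves. It then reported that this microRNA repressed a reporter with the untranslated region of Socs2, unless that region was mutated. In a macrophage cell line, the microRNA also lowered the Socs2 protein. The nerve counts given here do not address those experiments in cultured cells. Here the expression filter removed Socs2, and without that filter Socs2 did not meet the limits of the methods. In the fit without that filter its log2 fold change was -0.31 (adjusted p = 0.852), with a 95% interval from -1.57 to 0.95, that is, from 0.337-fold to 1.93-fold.

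The genes around the family were read from 8 lists of the pathway, of which 69 genes were tested. Of these, 11 were higher and 2 were lower in crushed nerves at an adjusted p under 0.05, beside the 1.47% and 1.65% of all genes given above. The lists were chosen with earlier results of these data known, so these counts describe the lists and do not measure an enrichment. Among the cytokine receptors that use JAKs, 4 of 17 tested rose and none fell, with a median log2 fold change of 0.17. Il6st, which encodes gp130, the shared receptor that Socs3 binds, had 237.1, 236.6 and 234.8 CPM in intact and 303.3, 303.8 and 307.1 CPM in crushed nerves 1, 2 and 3. The 3 crushed nerves stood well above the intact nerves, and the difference was 0.37 on the log2 scale with a standard error of 0.0355 (edgeR, adjusted p = 0.000200). Osmr, the oncostatin M receptor that pairs with gp130, rose with a log2 fold change of 0.41 (adjusted p = 0.0231). Il13ra1, a receptor of IL-13 and IL-4, rose by 0.36 (adjusted p = 0.0131) and Ifngr2, a subunit of the interferon-γ receptor, by 0.55 (adjusted p = 0.0331). Il6st passed the test with any nerve left out. Osmr passed only without intact nerve 1 (adjusted p up to 0.119 otherwise), Il13ra1 no longer passed without crushed nerve 2 (0.0777) or crushed nerve 3 (0.0606), and Ifngr2 passed only without intact nerve 1 or 3 (up to 0.114 otherwise). Of the 27 receptors listed, 8 had at most 3 counts in every nerve, among them Lifr, which had 1 count in intact nerve 1 and 1 in crushed nerve 2.

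On the ligand side, 6 of 18 cytokines were tested and 0 passed at an adjusted p under 0.05 with edgeR or DESeq2, with 1 at an unadjusted p under 0.05, beside the 16.2% of all genes. The smallest p belonged to Csf3, which encodes G-CSF, with 57, 62 and 43 counts in intact and 91, 79 and 122 in crushed nerves (log2 fold change 0.80, edgeR adjusted p = 0.0827). The crushed nerves all lay above the intact nerves, as they did for 10.8% of all genes tested. Of the 18 ligands, 9 had at most 3 counts in every nerve, among them Il6, Osm and Ifng. Osm, a ligand of Osmr, had at most 2 counts, and Ifng, the ligand of the receptor that holds Ifngr2, at most 1.

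Inside the cell, 0 of the 4 JAK kinases passed an adjusted p of 0.05 with edgeR and 1 did with DESeq2. With edgeR, 2 had an unadjusted p under 0.05, beside 16.2% of all genes tested. Jak3 had the smallest p (log2 fold change 0.23, edgeR adjusted p = 0.0749). All 4 had a positive value, as did 6126 of the 12393 genes tested. Their median was 0.11, and Tyk2 had 0.008 (edgeR adjusted p = 0.958). Of 5 STATs tested here, 2 rose and none fell, with a median log2 fold change of 0.14. Stat3, which relays the gp130 signal, had 217.4, 211.1 and 205.1 CPM in intact and 278.2, 271.4 and 268.7 CPM in crushed nerves 1, 2 and 3. Every crushed nerve exceeded every intact nerve, and the difference was 0.37 on the log2 scale with a standard error of 0.0395 (adjusted p = 0.000421). Stat2, a STAT of the interferon response, rose by 0.25 (adjusted p = 0.0394). Stat3 kept its call with any nerve left out, and Stat2 kept it only without crushed nerve 3 (up to 0.190 otherwise). Stat6 and both Stat5 genes, named here for their role after their values were seen, did not pass. Stat6, the STAT of IL-4 signaling, differed by 0.04 on the log2 scale (adjusted p = 0.669), and Stat5a and Stat5b, the STATs that Cish and Socs2 restrain, had 0.14 (adjusted p = 0.447) and -0.08 (adjusted p = 0.622).

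**Figure D3:**
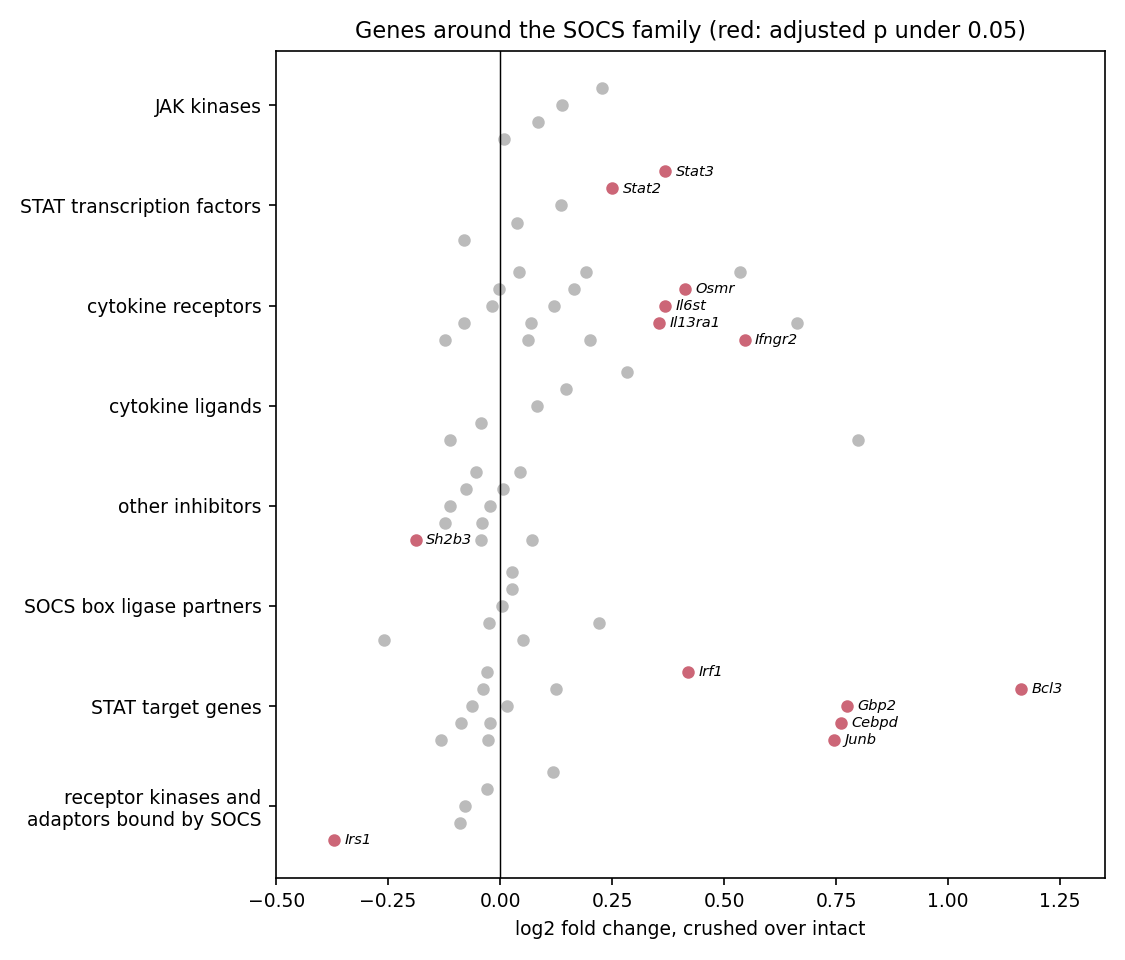
Log2 fold change of crushed over intact nerves (x axis) for each tested gene of 8 pathway lists (y axis, spread vertically for legibility), with genes at an adjusted p under 0.05 in red and named. Red points lie to the right of 0 among receptors, STATs and STAT targets, and the 2 to the left are Sh2b3 and Irs1.

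Of 14 STAT target genes tested, 5 rose and none fell, while the median of the list was -0.0037. Gbp2, an interferon-induced GTPase, rose from 238.0 ± 2.81 to 407.0 ± 5.26 CPM (SD, n = 3 each), a log2 fold change of 0.77 (edgeR, adjusted p = 1.68e-06). Junb, an AP-1 subunit, rose from 65.3 ± 3.53 to 109.5 ± 5.78 CPM, a log2 fold change of 0.75 (adjusted p = 3.73e-05). Irf1, a transcription factor of the interferon response, rose by 0.42 (adjusted p = 0.000158). Bcl3, an IκB-like coregulator, rose by 1.16 (adjusted p = 0.00182) and was the gene of the 8 lists that met the limits of the methods. Without intact nerve 3 its log2 fold change was 0.996, just under the limit of 1. The fifth, Cebpd, is named after its value was seen and passed only without intact nerve 1 when a nerve was left out (adjusted p = 0.0448 with all nerves, up to 0.152 otherwise). Several of these genes are also known NF-κB targets. The other 9 did not pass, among them Myc, Ccnd1, Pim1 and Cdkn1a (also named after their values were seen), whose log2 fold changes lay between -0.09 and 0.02.

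**Figure D4:**
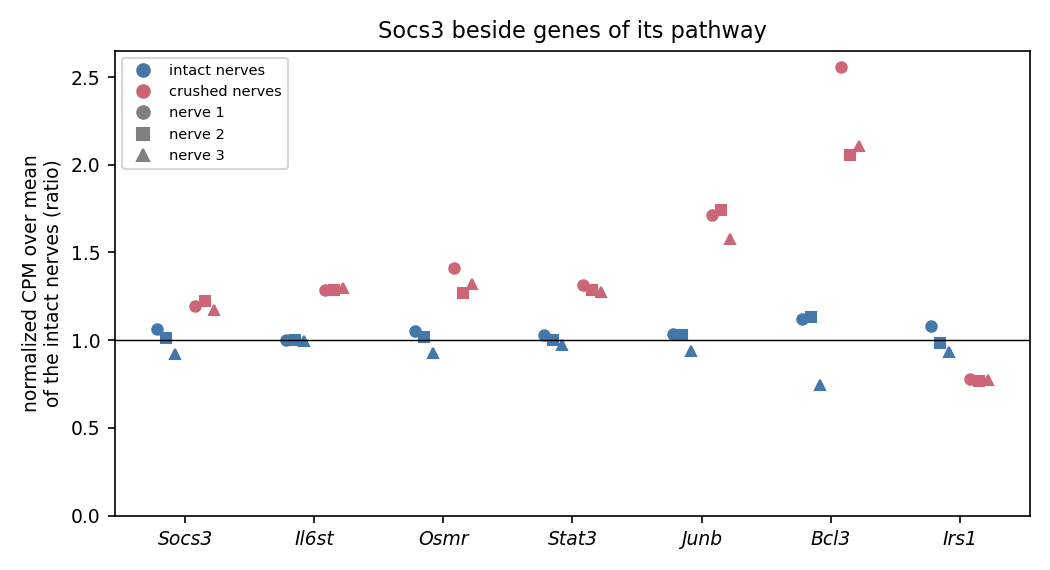
Normalized CPM divided by the mean of the 3 intact nerves (y axis, from 0) for Socs3 and 6 pathway genes that passed the test, in 3 intact (blue) and 3 crushed (red) nerves. The crushed nerves lie above the intact nerves for the first 6 genes and below them for Irs1, with rises of 19.7% for Socs3, 29.2% for Stat3, 67.7% for Junb and 123.8% for Bcl3.

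Other proteins restrain the pathway by dephosphorylating, sumoylating or binding its parts. Of 11 other inhibitors, all of them tested, none rose and 1 fell. This was Sh2b3, the adaptor LNK, which restrains JAK2 (log2 fold change -0.19, adjusted p = 0.0324), and which passed only without intact nerve 1 or 3 when a nerve was left out (up to 0.135 otherwise). Of the 7 partners of the SOCS box ubiquitin ligase, 0 passed with edgeR or DESeq2. An unadjusted p under 0.05 was found for 1 of them, beside 16.2% of all genes tested. Ube2f had the smallest p (log2 fold change 0.22, adjusted p = 0.257), and Cul5, the cullin that binds the SOCS box, had -0.02. Among 5 receptor kinases and adaptors bound by SOCS proteins, none rose and Irs1 fell. Irs1, the insulin receptor substrate that SOCS proteins mark for degradation, had 1192, 1132 and 1003 counts in intact and 926, 908 and 843 in crushed nerves 1, 2 and 3. All 3 crushed nerves lay below the intact nerves, and the difference was -0.37 on the log2 scale with a standard error of 0.0649 (edgeR, adjusted p = 0.0113), and the call was lost without crushed nerve 1 (0.0578) or crushed nerve 2 (0.0618). Kit and Egfr had 0 counts in every nerve, a level under 0.121 CPM.

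Markers of other cell types were measured beside these genes. The summed level of 5 mural cell markers was between 185.4 and 201.8 CPM in intact and between 149.3 and 151 CPM in crushed nerves, with Rgs5 at 0 counts in all nerves. Of these, Pdgfrb fell by 0.77 (adjusted p = 0.00106) and Cspg4 by 0.35 (adjusted p = 0.00103) on the log2 scale. The 9 Schwann cell and myelin markers summed to between 65.2 and 70.3 CPM in intact and between 62.8 and 62.9 CPM in crushed nerves, and 1 of the 4 tested, Erbb3, fell by 0.59 (adjusted p = 0.0222). The 6 fibroblast markers, of which Col1a2, Dcn and Lum were at 0 in all nerves, summed to between 64.4 and 71.6 CPM in intact and between 62.7 and 69.5 CPM in crushed nerves. Of the 3 fibroblast markers tested, Col1a1 fell by 0.69 (adjusted p = 0.000662) and Col3a1 by 1.76 (adjusted p = 0.0268), the latter also past the limits of the methods, whereas Pdgfra, the most abundant, averaged 46.6 CPM in intact and 53.3 CPM in crushed nerves and did not pass (adjusted p = 0.166). Endothelial markers, of which 4 of 5 were in the table, summed to between 4.62 and 5.49 CPM in intact and between 3.77 and 5.08 CPM in crushed nerves. The 6 T cell and neutrophil markers stayed at or below 0.316 CPM. The part of these markers in the values of Socs3 and its pathway was not tested.

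Over the 6 nerves, the genes whose log2 CPM followed Socs3 most closely were RGD1562399 (Pearson r = 0.995), LOC686807 (r = 0.991) and Mybbp1a (r = 0.990), given as a description across 6 libraries that share the contrast. RGD1562399 had between 19 and 26 counts in intact and between 33 and 40 in crushed nerves, and LOC686807 between 39 and 51 and between 66 and 77. Mybbp1a, which encodes a nucleolar MYB-binding protein, differed by 0.03 on the log2 scale (edgeR, adjusted p = 0.681). RGD1562399 (adjusted p = 0.166) and LOC686807 (adjusted p = 0.106) did not pass either.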

How the data were processed

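RNA-seq counts of reads per Ensembl gene, not normalized, and FPKM values were deposited by the authors in 1 table for 3 intact and 3 crushed nerves. The submitters' processing notes name HISAT2, StringTie (version 1.3.0) and Rnor_6.0. The counting rule, its use of strand and the annotation release are not given in the sources used here, so reads of overlapping or antisense genes cannot be told apart. The deposited FPKM follow from the counts, a fixed length per gene and the nerve's total on genes. The methods and the labels differ on the side of the lesion and on RNase R digestion, which the methods describe. Any effect of such a digestion on the levels given here was not tested.

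The test was edgeR's quasi-likelihood test in R 4.3.3 (versions: edgeR 4.0.16 and limma 3.58.1) over all 6 nerves, with TMM normalization, edgeR's expression filter, no block, and Benjamini-Hochberg adjustment over all 12393 genes. Socs2 was read from the fit to the 17425 genes with at least 1 count. Intervals are 95%. No replicate was a copy of another: their chi-square divided by its degrees of freedom ranged from 3.38 to 12.4. Intervals and floors of 3 counts do not cover PCR duplication. The calculation was tested on simulated counts.

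Members and lists were chosen with earlier results of these data known. Named are all members, the list genes past an adjusted p of 0.05 (at most the 4 with the smallest p, otherwise the smallest), and the 3 genes most correlated with Socs3. Alternatives were the replicate block, DESeq2 1.42.0, RLE factors, no filter, limma on log2(FPKM + 0.1), with and without the filter, and on log2(FPKM + 1), FPKM scaled by TMM factors, and each nerve left out. Stat4, Mcl1, Pecam1 and 2 further list genes are not reported here.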

Additional observations from a re-analysis of the deposited data

How the results depend on the processing

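Of the 13 alternatives, 7 kept the adjusted p of Socs3 under 0.05, and its log2 fold change stayed between 0.21 and 0.31 in all of them. It was lost with limma on log2(FPKM + 0.1) and no filter (log2 fold change 0.28, adjusted p = 0.0948), so that the number of members higher was 0 there. Across the fits that each left out 1 nerve, its log2 fold change lay between 0.208 and 0.311 and the number of members higher between 0 and 1. The number of members at the limits of the methods was 0 in every alternative, as was the number lower at an adjusted p under 0.05.

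Of the 7 members that did not pass, 5 changed sign when a nerve was left out, and Socs6 (0.0817 to 0.190) and Cish (-0.292 to -0.0835) did not. Socs1 ranged from -0.490 to 0.0341 (0.0341 without intact nerve 1), Socs2 from -0.789 to 0.0693 (0.0693 without crushed nerve 2), Socs4 from -0.0018 to 0.0276 (-0.0018 without crushed nerve 3), Socs5 from -0.0379 to 0.0725 (-0.0379 without intact nerve 1) and Socs7 from -0.0397 to 0.104 (-0.0397 without intact nerve 1 and -0.0152 without intact nerve 2).

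Of the list counts, the JAK kinases higher numbered 1 with DESeq2, against 0. With limma on log2(FPKM + 0.1), 2 receptors were higher with and without the filter, against 4. The number of STATs higher was 1 with each of the 3 limma fits and with the replicate block, against 2. The 1 other inhibitor lower (Sh2b3) and the 1 receptor kinase or adaptor lower (Irs1) became 0 with each of the 3 limma fits. With 1 nerve left out, between 0 and 1 JAKs, 1 and 2 STATs and 1 and 4 receptors were higher, and between 0 and 1 other inhibitors and 0 and 1 receptor kinases or adaptors were lower. Over all genes, the number higher was 182 and ranged from 100 to 218, and the number lower was 205 and ranged from 65 to 292. For these shifts the cause was not tested. The fits without a nerve hold fewer samples.

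With the replicate block, Socs3 differed by 0.26 on the log2 scale (edgeR, adjusted p = 0.0356), and Stat2 (0.0534) and Cebpd (0.0804) lost their calls. Deviations of same-numbered nerves correlated between -0.0106 and 0.0720, and 2 of 6 nerves were closest to the nerve of their own number, so the samples share only a number and the pairing is not established. FPKM levels moved by less than 1 SD under the scaling by TMM factors. Depth limits Socs1, Cish and Socs2, which had at most 74 counts per nerve.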
